A study of Homo sapiens with 3 samples.

Results

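Cells with the aspartate form of KAP1 differed from cells with the wild-type form in a few of the genes that switch MAP kinase signalling off, and in opposite directions. The genes described are 10 feedback regulators, chosen by gene symbol with earlier results of these data known: the receptor-type tyrosine phosphatase gene PTPRR, the dual-specificity phosphatase genes DUSP1, DUSP4, DUSP5, DUSP6 and DUSP10, the Sprouty genes SPRY2 and SPRY4, and the Sprouty-related genes SPRED1 and SPRED2. All 10 are among the 19049 genes read from the deposited table, and all 10 passed the filter on low values (an average of 1 RPKM or more), which kept 11570 genes. RPKM is a read number scaled to the length of the gene model and to the depth of the library, so that levels can be compared between genes.

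The RNA came from MDA-MB-231, an established breast cancer cell line of basal-like, mesenchymal character, in which a short hairpin RNA depleted KAP1 and a chosen form was put back. KAP1, the product of TRIM28, is a corepressor that works at chromatin with KRAB zinc finger proteins. The S473D cells carry a form with aspartate in place of the serine under study, a substitution that imitates phosphorylation. The S473A cells carry alanine there, which cannot be phosphorylated, and the wt cells carry the unchanged serine. Both the hairpin and a re-expressed KAP1 are shared by all 3 groups, and all were grown with 10% FBS at 37°C and 5% CO2. Each group is 1 library. There is therefore no replicate error and no test of any difference, and each ratio describes a pair of libraries. The 95% intervals beside ratios are exact intervals for counting error only, at depths estimated from the table as 24000000 counted reads for S473D, 29500000 for S473A and 25800000 for wt.

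In the MAP kinase cascades a receptor signal passes through RAS and a chain of kinases to ERK, JNK or p38, which are switched on by phosphorylation of a threonine and a tyrosine. MAP kinase phosphatases remove those phosphates, and Sprouty and SPRED proteins act further up, at the level of the receptor, RAS and RAF. Many of these genes are themselves switched on by ERK signalling, which makes them a negative feedback and a common readout of pathway output.

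TRIM28 itself stood at 25.6 RPKM in S473D, 32.3 in S473A and 28.7 in wt, and these values do not separate the cells' own transcript from the re-expressed one. The markers of the line were high, with VIM, CD44, CAV1, AXL and MSN between 87.9 and 740.0 RPKM in the 3 libraries. The luminal and epithelial genes ESR1, PGR, CDH1 and EPCAM reached at most 0.339 RPKM and GATA3 at most 1.83. Of the fibroblast markers, COL1A1 stood at 1.66 RPKM in S473D, 1.66 in S473A and 1.63 in wt, and COL1A2, PDGFRB and LUM at no more than 0.243. The leukocyte gene PTPRC stood at 0 in S473D and S473A and at 0.0264 RPKM in wt, while CD68 stood at 36.7 RPKM in S473D, 51.6 in S473A and 50.1 in wt. DCN and CD3E were not analysed here.

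Sequences upstream of the transcription start were available for 8 of the 10 genes, from RefSeq in build GRCh38.p14, and 3 of them are shown because they belong to the gene that was highest in S473D relative to wt (PTPRR), the gene that was lowest (SPRY4) and a gene whose level was nearly equal in the 3 libraries (DUSP1). Each is the 250 bases before the most upstream start, 5′ to 3′ on the minus strand, at chr12:70788921-70789170 for PTPRR, chr5:142324248-142324497 for SPRY4 and chr5:172771196-172771445 for DUSP1. PTPRR has 3 starts in the RefSeq table, and the others have 1. Capitals mark motif matches.
PTPRR: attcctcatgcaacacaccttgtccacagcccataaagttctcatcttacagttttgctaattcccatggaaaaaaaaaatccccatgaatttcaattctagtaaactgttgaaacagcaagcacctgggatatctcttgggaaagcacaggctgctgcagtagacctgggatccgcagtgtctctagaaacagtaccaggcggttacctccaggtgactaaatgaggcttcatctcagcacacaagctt
SPRY4: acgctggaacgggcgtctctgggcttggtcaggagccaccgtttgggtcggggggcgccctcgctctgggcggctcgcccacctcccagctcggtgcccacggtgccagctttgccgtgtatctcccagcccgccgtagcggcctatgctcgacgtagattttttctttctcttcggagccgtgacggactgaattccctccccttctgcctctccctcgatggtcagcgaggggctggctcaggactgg
DUSP1: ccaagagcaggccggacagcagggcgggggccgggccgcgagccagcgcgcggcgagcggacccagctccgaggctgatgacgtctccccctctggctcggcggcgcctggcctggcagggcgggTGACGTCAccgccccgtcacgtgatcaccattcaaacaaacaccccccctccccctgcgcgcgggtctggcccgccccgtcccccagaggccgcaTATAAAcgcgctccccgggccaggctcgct
On both strands, 5 motifs were searched. The cAMP response element TGACGTCA was found in DUSP1 alone of the 8 sequences, 125 to 118 bases before the start, and in 1.75% of 27305 promoters of the same length. The TATA box TATAAA was also found in DUSP1 alone, 30 to 25 bases before the start, against 11.2% of all promoters. An ETS site CCGGAA was present in SPRY2 alone of the 8, against 14.8% of all. The AP-1 site TGANTCA (6.57% of all promoters) and the CArG box that serum response factor binds (1.15%) had no match in the 8. The motifs do not overlap in these sequences. PTPRR and SPRY4, which lay at opposite ends of the differences, held none of the 5 motifs in these windows. Their base composition differed, with 44.8% G and C upstream of PTPRR, 65.6% upstream of SPRY4 and 74.4% upstream of DUSP1.

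PTPRR showed the largest difference of the 10 genes. It encodes a receptor-type tyrosine phosphatase that binds ERK through a kinase interaction motif, takes off its activating tyrosine phosphate and holds it in the cytoplasm. Its level was 13.1 RPKM in S473D, 3.69 in S473A and 4.39 in wt, from an estimated 1107 reads in S473D, 384 in S473A and 400 in wt. The S473D library thus stood alone on the high side, and the S473A library was the lowest. S473D was 2.98 times wt (interval 2.65 to 3.34) and 3.54 times S473A (interval 3.15 to 3.99), while S473A was 0.84 times wt (interval 0.728 to 0.969). All differences below are of log2(RPKM + 1), which understates those of low genes, and PTPRR was 1.38 higher by it in S473D than in wt. It ranked 20 from the top of the 11570 genes by this difference. A processed pseudogene lies over exons of PTPRR on the opposite strand in GENCODE release 29. In bulk RNA, a higher level in every cell and a higher share of cells with the transcript cannot be told apart.

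**Figure D1:**
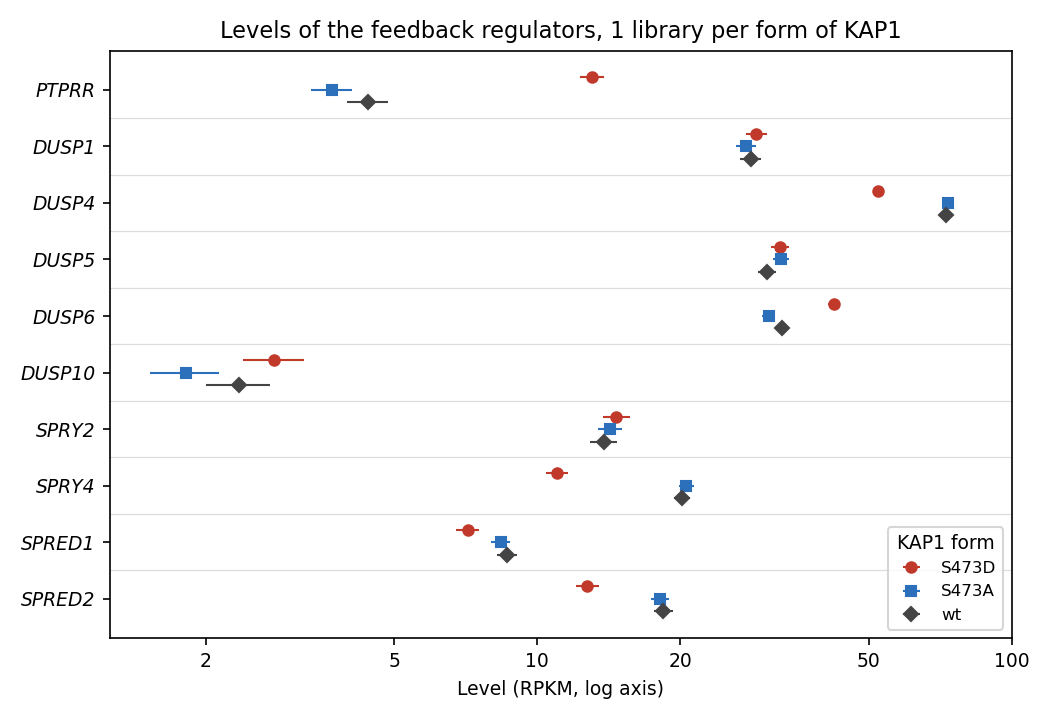
Level of each of the 10 feedback regulators in RPKM (log axis) in the S473D, S473A and wt libraries, 1 library per form of KAP1. Bars are 95% intervals for counting error only. The S473D point lies far above the others for PTPRR (13.1 RPKM in S473D, 3.69 in S473A and 4.39 in wt) and below them for SPRY4 (11.0 RPKM in S473D, 20.6 in S473A and 20.2 in wt), while the 3 points of DUSP1 and SPRY2 lie close together.

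Of the phosphatases that sit in the nucleus and are induced by growth factors and stress, DUSP4 was lower in S473D while DUSP1 and DUSP5 lay near wt. DUSP4, which dephosphorylates ERK and other MAP kinases in the nucleus, was the most abundant of the 10 genes in every library, at 52.3 RPKM in S473D, 73.3 in S473A and 72.8 in wt. Only the S473D library was low, at 0.719 times wt (interval 0.697 to 0.741). The S473A level was 1.01 times wt (interval 0.981 to 1.03). DUSP1, the classic immediate early phosphatase gene, which acts most strongly on p38 and JNK, had 28.97 RPKM in S473D, 27.5 in S473A and 28.2 in wt. DUSP5, the nuclear phosphatase that is selective for ERK, had 32.5 RPKM in S473D, 32.6 in S473A and 30.6 in wt. As deposited, neither DUSP1 nor DUSP5 separated S473D from wt beyond counting error, with ratios of 1.03 (interval 0.956 to 1.11) and 1.06 (interval 0.998 to 1.13), though both lay above wt after centring or trimmed mean scaling. The log2 difference of DUSP4 between S473D and wt was -0.47, against 0.04 for DUSP1 and 0.08 for DUSP5.

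DUSP6, the cytoplasmic phosphatase that is selective for ERK and widely used as a readout of ERK activity, was higher in S473D. Its level was 42.1 RPKM in S473D, 30.8 in S473A and 32.8 in wt. The S473D library was high and the others lay near each other, S473A at 0.939 times wt (interval 0.898 to 0.983). S473D was 1.29 times wt (interval 1.23 to 1.34) and 1.37 times S473A (interval 1.31 to 1.43). In S473D it stood clear of DUSP5 and DUSP1, while in S473A and wt DUSP6, DUSP5 and DUSP1 all lay between 27.5 and 32.8 RPKM. A noncoding gene on the opposite strand overlaps exons of DUSP6 in the same release, and since the use of strand in the counting is not given, reads of such pairs cannot be told apart.

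DUSP10, whose protein prefers JNK and p38 over ERK, was the least abundant of the 10, at 2.79 RPKM in S473D, 1.82 in S473A and 2.35 in wt. It rests on an estimated 179 reads in S473D, 143 in S473A and 162 in wt, the fewest of the 10 genes. The interval of the ratio of S473D to wt, 0.954 to 1.48, held 1, while S473D was 1.53 times S473A (interval 1.23 to 1.93). S473A was lowest, with a ratio to wt of 0.772 (interval 0.612 to 0.973) and a log2 difference of -0.25, the largest of the 10 genes in that comparison.

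Among the Sprouty genes the 2 members parted. SPRY4, whose protein restrains receptor-driven activation of RAS and RAF, was at 11.0 RPKM in S473D, 20.6 in S473A and 20.2 in wt. The S473D library was the low one and the other 2 differed by less than counting error. S473D was 0.545 times wt (interval 0.509 to 0.582) and 0.534 times S473A (interval 0.50 to 0.570). The log2 difference of -0.82 from wt ranked 46 from the bottom among the 11570 genes. SPRY2, its close relative, was at 14.7 RPKM in S473D, 14.2 in S473A and 13.8 in wt, with a ratio of S473D to wt of 1.06 (interval 0.972 to 1.17). Within a library, a ratio of 2 genes does not depend on how the libraries are scaled, and the level of SPRY2 over that of SPRY4 was 1.33 in S473D, 0.689 in S473A and 0.683 in wt. SPRY2 was thus the more abundant of the pair in S473D and the less abundant in S473A and wt. Any such ratio of 2 genes still holds the trends on transcript length and GC content described below. With those removed, the difference between S473D and wt went from 0.08 to 0.05 for SPRY2 and from -0.82 to -0.58 for SPRY4.

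The SPRED genes encode membrane proteins that bring neurofibromin to RAS and so keep RAS inactive. SPRED2 had 12.8 RPKM in S473D, 18.2 in S473A and 18.4 in wt. S473D was again the only low library, at 0.691 times wt (interval 0.643 to 0.742), a log2 difference of -0.50. SPRED1 lay lower in all 3, at 7.13 RPKM in S473D, 8.37 in S473A and 8.64 in wt, and its S473D level was 0.825 times wt (interval 0.768 to 0.887). SPRED1 had the smaller of the differences, -0.25 on the log2 scale. The level of SPRED1 over that of SPRED2 was 0.559 in S473D, 0.461 in S473A and 0.468 in wt.

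Ordered by level, the 10 genes ran in wt from DUSP4 through DUSP6, DUSP5, DUSP1, SPRY4, SPRED2, SPRY2, SPRED1 and PTPRR to DUSP10. PTPRR was number 6 in S473D and number 9 in S473A and wt, and SPRY4 was number 8 in S473D and number 5 in S473A and wt. Counting intervals of neighbours in this order overlapped in S473D for PTPRR with SPRY2 and with SPRED2, in S473A for DUSP5 with DUSP6, and in wt for DUSP6 with DUSP5 and DUSP5 with DUSP1. These intervals hold no spread between cultures and leave out differences in how well single gene models are counted.

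**Figure D2:**
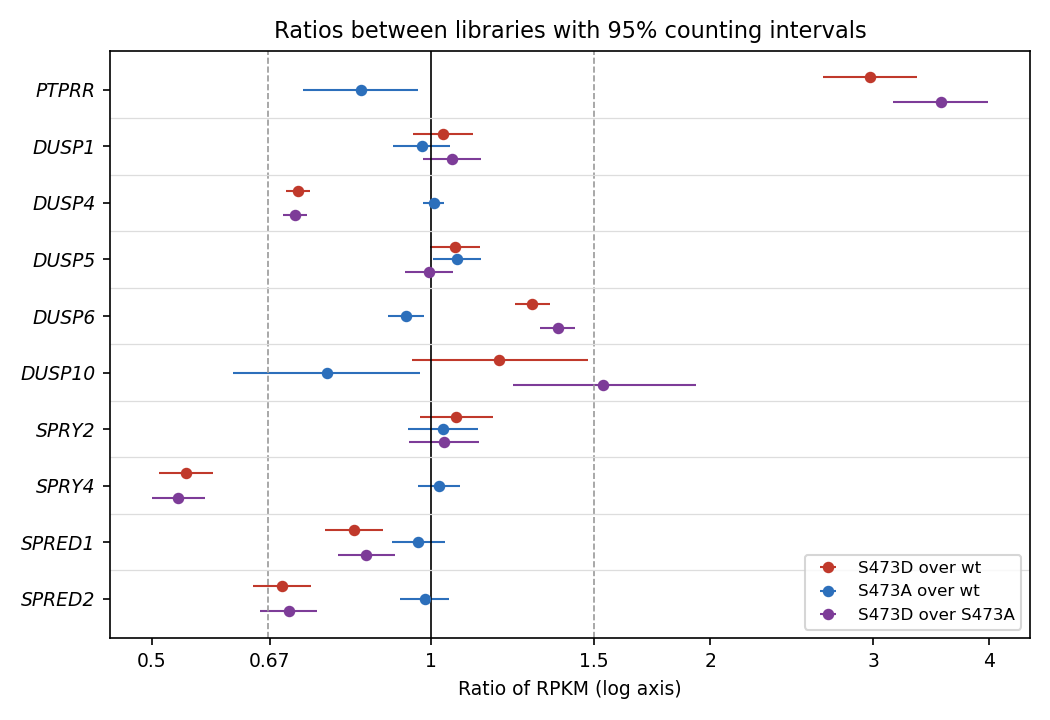
Ratios of RPKM between pairs of libraries for the 10 genes (log axis), S473D over wt, S473A over wt and S473D over S473A, with exact 95% counting intervals. Dashed lines mark 1.5-fold. PTPRR lies right of the upper line (2.98 and 3.54) and SPRY4 left of the lower line (0.545 and 0.534) in both comparisons with S473D, DUSP10 lies just past the upper line for S473D over S473A (1.53), and all 10 ratios of S473A over wt lie between the lines.

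Counted by a fixed limit of 1.5-fold on log2(RPKM + 1), a limit of 0.585, 1 of the 10 genes was higher in S473D than in wt (PTPRR), where 6.83% of the 11570 genes were, and 1 was lower (SPRY4), where 3.23% were. PTPRR alone passed 2-fold, as 1.09% of all genes did in either direction. The genes had been chosen with these differences known, so nothing is read from the counts. By counting intervals, S473D lay above wt in 2 genes (PTPRR and DUSP6), below it in 4 (DUSP4, SPRY4, SPRED1 and SPRED2) and could not be told from it in 4 (DUSP1, DUSP5, DUSP10 and SPRY2), as the libraries were scaled by the authors. After centring and also after trimmed mean scaling, which raise each ratio of S473D to wt by 1.07 and 1.08 times, the intervals of these 4 lay above 1 as well, so that 6 genes were above wt and the same 4 below it. Between S473D and S473A, 3 genes were above, 4 below and 3 could not be told apart as deposited, against 6, 4 and 0 under either scaling. The share of all genes whose intervals lie above or below 1 is not given here, so nothing is read from these counts either. The median log2 difference of the 10 was 0.06, with a range of -0.82 to 1.38, against a median of -0.10 for all genes, which is the shift of the S473D library as a whole. Over all genes, 790 were at least 1.5-fold higher and 374 lower in S473D than in wt, so 67.9% of those apart were higher. That share was 89.6% with differences centred on their median, 88.9% after trimmed mean scaling of the libraries, and 34.1% with trends on transcript length and GC content removed. Against S473A, 1 of the 10 was at least 1.5-fold higher in S473D by log2(RPKM + 1) (PTPRR, 6.86% of all genes) and 1 lower (SPRY4, 3% of all genes). DUSP10, 1.53 times S473A by RPKM, lay inside the limit on this scale, at 0.43. There 69.6% of all genes apart were higher as deposited, 89.7% after centring, 89.2% after trimmed mean scaling and 32.6% with the trends removed. These 2 comparisons share the S473D library.

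Between S473A and wt, 0 of the 10 genes were at least 1.5-fold lower and 0 higher, where 0.147% and 0.0951% of all genes were. The log2 differences ran from -0.25 (DUSP10) to 0.09 (DUSP5), with a median of -0.03 against 0.00 for all genes. The counting interval held 1 for 6 genes. It lay below 1 for PTPRR, DUSP6 and DUSP10, and above 1 for DUSP5, whose S473A level was 1.07 times wt (interval 1.01 to 1.13). The share of all genes called in this way is not given here, and nothing is read from these counts. PTPRR, DUSP6 and DUSP10 had their highest level in S473D, their lowest in S473A and wt between the 2. The size of these S473A differences, at most 1.30-fold, cannot be set against a spread between cultures, which 1 library per group does not give.

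**Figure D3:**
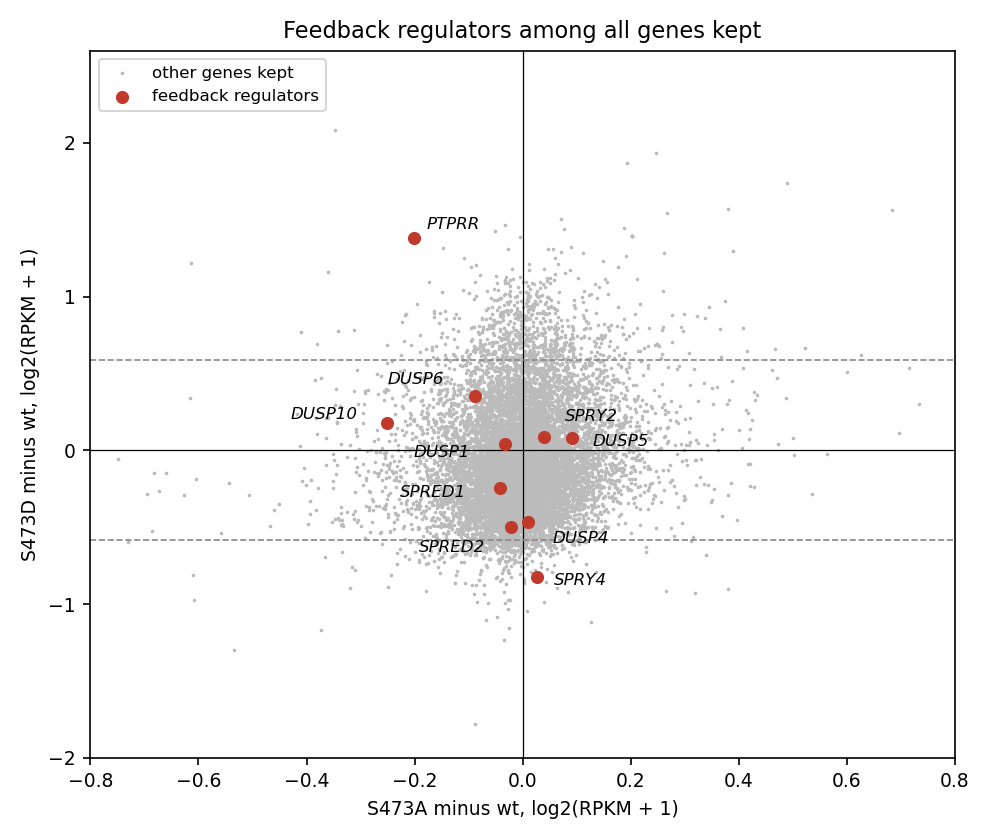
Log2(RPKM + 1) differences of S473A minus wt (horizontal axis) and S473D minus wt (vertical axis) for the genes kept, grey, and the 10 feedback regulators, red and named. Both axes share the wt library, 9 genes lie outside the axes, and dashed lines mark 1.5-fold. PTPRR stands at 1.38 and SPRY4 at -0.82 on the vertical axis, while the 10 genes stay between -0.25 and 0.09 on the horizontal one.

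Transcript length and GC content moved with the S473D library. The median log2 difference between S473D and wt was 0.21 in the lowest of 4 equal classes by transcript length, 75 to 2042 bases, and -0.26 in the highest, 4994 bases or more. By GC content it was 0.02 in the lowest of 4 classes and -0.19 in the highest. Between S473A and wt the medians of all these classes lay between -0.01 and 0.01. The 10 genes have transcripts of 2019 (DUSP1) to 7780 bases (SPRED1) and a GC content of 38.9% (SPRED1) to 55.9% (DUSP5). PTPRR (3529 bases), SPRED2 (4097), DUSP6 (4400) and SPRY4 (4938) all fall in length class 3 of 4, where the median of all genes was -0.16, and their own differences were 1.38, -0.50, 0.35 and -0.82.

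With smooth trends on length and GC content removed, the differences of PTPRR and DUSP6 between S473D and wt were as large or nearly so, at 1.33 and 0.44. PTPRR then ranked 3 from the top of the 11305 genes with a known transcript. SPRY4 went to -0.583, just inside the 1.5-fold line at 0.585, and ranked 388 from the bottom. SPRED2 went to -0.38 and DUSP4 to -0.21, where the median of all genes was -0.10. SPRED1 stayed at -0.23. DUSP1 (-0.01), SPRY2 (0.05), DUSP10 (0.07) and DUSP5 (0.14) remained near 0.

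**Figure D4:**
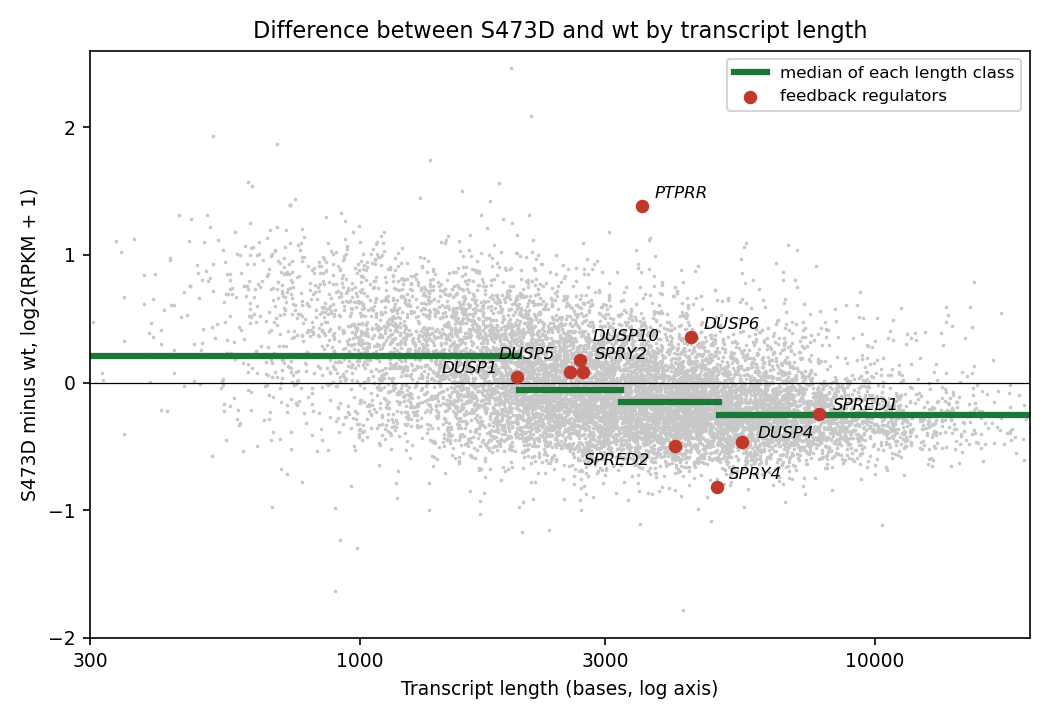
Log2(RPKM + 1) difference of S473D minus wt against transcript length (bases, log axis) for all genes with a known transcript, grey, with the 10 feedback regulators in red and the median of each of 4 length classes as a green bar. The class medians step down from 0.21 to -0.26, and PTPRR and DUSP6 lie above, SPRY4 and SPRED2 below, the bar of class 3 at -0.16. Of the genes, 25 lie outside the axes, and the outer bars are drawn to the edge.

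Of 7 other MAP kinase phosphatases listed, 5 were in the table and 2, DUSP7 and DUSP16, passed the filter. DUSP7, a cytoplasmic relative of DUSP6 that is also selective for ERK, had 13.3 RPKM in S473D, 19.5 in S473A and 18.5 in wt, a log2 difference of -0.44 between S473D and wt. It lay on the other side of wt from DUSP6, and the level of DUSP6 over that of DUSP7 was 3.16 in S473D, 1.58 in S473A and 1.77 in wt. DUSP16, which acts on JNK and p38, had 3.11 RPKM in S473D, 4.43 in S473A and 4.21 in wt, a difference of -0.34 between S473D and wt. With the trends removed, the differences were -0.28 for DUSP7 and -0.19 for DUSP16, where the median of all genes was -0.10. DUSP2, DUSP8 and DUSP9 stood at no more than 0.649 RPKM in any of the 3 libraries.

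The RPKM of these genes was also summed by class. The nuclear inducible phosphatases DUSP1, DUSP2, DUSP4 and DUSP5 came to 113.8 RPKM in S473D, 133.4 in S473A and 131.5 in wt, a ratio of 0.865 between S473D and wt. The cytoplasmic ERK-selective DUSP6, DUSP7 and DUSP9 came to 55.5 RPKM in S473D, 50.3 in S473A and 51.2 in wt, a ratio of 1.08 between S473D and wt. DUSP8, DUSP10 and DUSP16, which prefer JNK and p38, came to 6.14 RPKM in S473D, 6.74 in S473A and 7.22 in wt, a ratio of 0.851. The Sprouty genes summed to 29.3 RPKM in S473D, 38.7 in S473A and 38.2 in wt, a ratio of 0.767. The SPRED genes summed to 21.3 RPKM in S473D, 28.8 in S473A and 29.4 in wt, a ratio of 0.724. In S473A all these sums were within 0.934 to 1.01 times wt. The sums are of RPKM as deposited, with the trends left in, and weigh abundant genes most. Within some classes genes lay on both sides of wt in S473D, as DUSP6 and DUSP7 did.

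The remaining family members, SPRY1 and SPRED3, were low. SPRY1 had 3.46 RPKM in S473D, 3.67 in S473A and 4.05 in wt, a difference of -0.18 between S473D and wt, or -0.32 with the trends removed. SPRED3 had 1.40 RPKM in S473D, 2.27 in S473A and 2.31 in wt, a difference of -0.46, or -0.19 with the trends removed. SPRY3 did not reach the filter. Of 15 atypical dual-specificity phosphatases, small enzymes without the MAP kinase binding domain, 7 passed the filter. Of these, 0 reached 1.5-fold between S473D and wt, where 6.83% of all genes were higher and 3.23% lower. After centring or trimmed mean scaling 1 did (DUSP12, higher), where 1105 and 1118 of the 11570 genes were higher. DUSP12 had 53.2 RPKM in S473D, 35.8 in S473A and 35.9 in wt, a difference of 0.56 between S473D and wt that was 0.16 with the trends removed. DUSP11, which works on RNA 5′ triphosphates, had 31.1 RPKM in S473D, 24.1 in S473A and 22.5 in wt, a difference of 0.45 that was 0.03 with the trends removed. DUSP14 differed by 0.38 between S473D and S473A, and DUSP22 by -0.03 between S473A and wt.

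Further up, 15 genes that restrain receptors and RAS passed the filter, and 14 of them lay below 0 between S473D and wt, where 60.7% of all genes did. Their median difference was -0.33, against -0.10 for all genes, and 1 was at least 1.5-fold lower, as were 3.23% of all genes. That gene, ERRFI1, whose product MIG6 blocks the kinase domain of the EGF receptor and is itself induced by ERK signalling, had 42.9 RPKM in S473D, 60.4 in S473A and 68.1 in wt. Its difference of -0.65 between S473D and wt was -0.76 with the trends removed, but -0.55 after centring and -0.55 after trimmed mean scaling, both within 1.5-fold. S473A also lay below wt in ERRFI1, with a difference of -0.17 and a ratio of 0.887 (interval 0.854 to 0.921). LRIG1, a membrane protein that sends receptors for degradation, had 7.27 RPKM in S473D, 11.7 in S473A and 11.0 in wt, a difference of -0.62 between S473D and S473A and 0.09 between S473A and wt. The difference of LRIG1 between S473D and S473A was -0.33 with the trends removed, -0.52 after centring and -0.52 after trimmed mean scaling, each within 1.5-fold. The median of the 15 genes with the trends removed was -0.21.

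Of 30 ERK cascade genes that passed the filter, 25 were below 0 between S473D and wt, where 60.7% of all genes were, and 1 was at least 1.5-fold lower, as were 3.23% of all genes. Their median was -0.26, against -0.10 for all genes, or -0.19 against -0.10 with the trends removed. The gene past the fold was RPS6KA2, an RSK kinase gene, at 1.53 RPKM in S473D, 2.78 in S473A and 2.83 in wt, a difference of -0.60 that was -0.50 after centring, -0.53 after trimmed mean scaling and -0.30 with the trends removed, each within 1.5-fold. Between S473D and S473A, RPS6KA2 differed by -0.58 and FGFR1, a growth factor receptor gene, by -0.52, or by -0.29 and -0.20 with the trends removed. Between S473A and wt the largest differences were those of MAPK3, which encodes ERK1, at -0.15, and of the kinase gene MKNK1, at -0.12. Of 28 JNK and p38 cascade genes, 22 were below 0 between S473D and wt, against the same 60.7% of all genes, with a median of -0.25 against -0.10 for all genes, or -0.14 against -0.10 with the trends removed. GADD45B, a stress-induced gene among them, was the exception past 1.5-fold, on the higher side, as were 6.83% of all genes. It had 40.6 RPKM in S473D, 24.8 in S473A and 25.7 in wt, a difference of 0.64 that was 0.42 with the trends removed. Between S473A and wt, the p38 gene MAPK11 (0.24) and MAP3K1 (-0.16) differed most.

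**Figure D5:**
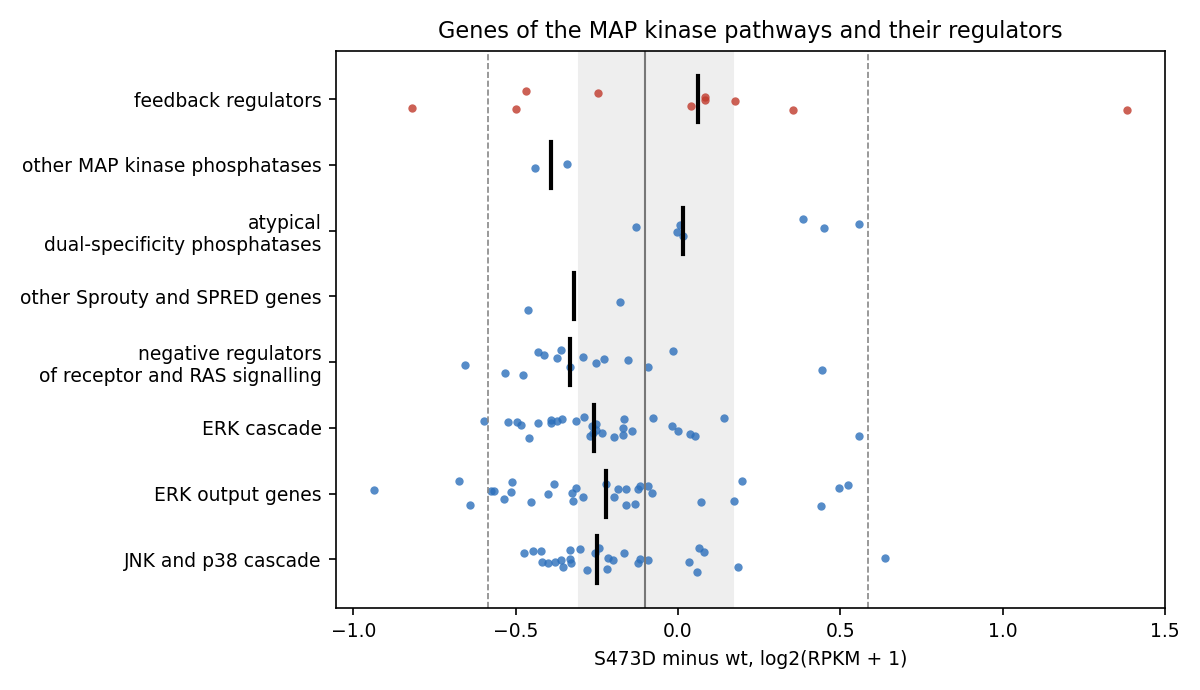
Log2(RPKM + 1) differences of S473D minus wt for the 10 feedback regulators, red, and for the genes of 7 related lists that passed the filter, blue, with a black bar at each median. The grey band spans the range from the lower to the upper quartile of all genes, -0.30 to 0.17, the grey line is their median at -0.10, and dashed lines mark 1.5-fold. The 10 regulators, chosen with these differences known, run from -0.82 to 1.38, with PTPRR the one point above 0.585.

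Genes known to be switched on by ERK signalling held members on both sides of wt in S473D. Of 31 that passed the filter, 25 were below 0 between S473D and wt, where 60.7% of all genes were. At least 1.5-fold lower were 3 (3.23% of all genes) and higher 0 (6.83% of all genes). Their median was -0.22, against -0.10 for all genes, and with the trends removed it was again -0.22, against -0.10. The 3 lower genes are FOSL2, HBEGF and ETV5, but after centring or trimmed mean scaling FOSL2 alone was at least 1.5-fold lower, and IL8 was at least 1.5-fold higher. FOSL2, an AP-1 subunit gene, had 20.6 RPKM in S473D, 38.4 in S473A and 40.4 in wt, a difference of -0.94 that was -0.64 with the trends removed. HBEGF, which encodes a ligand of the EGF receptor, had 30.1 RPKM in S473D, 49.0 in S473A and 48.7 in wt, a difference of -0.68 that was -0.71 with the trends removed. ETV5, an ETS factor gene that often accompanies SPRY4 and DUSP6 as a target of ERK signalling, had 15.3 RPKM in S473D, 23.1 in S473A and 24.4 in wt, a difference of -0.64 that was -0.53 with the trends removed. ETV5 thus lay on the same side of wt as SPRY4 and on the other side from DUSP6. Between S473D and S473A, the chemokine gene IL8 differed by 0.77, with 86.2 RPKM in S473D, 50.3 in S473A and 60.8 in wt, but by 0.14 with the trends removed. Its difference between S473D and wt was 0.50, or -0.13 with the trends removed, a change of sign. The AP-1 gene JUN differed by -0.60 between S473D and S473A, or -0.42 with the trends removed. IL8 (-0.27) and the EGF receptor ligand gene TGFA (-0.25) differed most between S473A and wt.

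The genes whose differences lay nearest to those of SPRY4 and PTPRR were found by the distance over S473A minus wt and S473D minus wt, in a pool of 8113 genes that averaged at least 5 RPKM. That likeness rests on 3 libraries. SPRY4 had 27 genes within a distance of 0.1, the nearest being the translation initiation factor gene EIF4G1, with 92.0 RPKM in S473D, 165.5 in S473A and 165.1 in wt, then HAUS7 and CMIP. PTPRR had 1 gene within that distance, LINC00493, with 83.8 RPKM in S473D, 29.8 in S473A and 33.1 in wt. LINC00493 differed by 1.31 between S473D and wt, and by 0.47 with the trends removed. Next were DKK1, a secreted Wnt antagonist gene, at a distance of 0.155, and ANKRD1, a target gene of YAP, at 0.163, with differences of 1.43 and 1.25 between S473D and wt that were 1.09 and 0.95 with the trends removed.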

How the data were processed

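RNA was sequenced from 3 MDA-MB-231 cultures, 1 library for each form of KAP1, grouped by title. The submitters' processing notes name Bowtie, Partek and build hg19; their versions, the annotation, counting rule and strand use were not given in the sources used here. Each deposited value is a log2 of RPKM, per the file name. The lowest is log2 of 0.1 in every column, so 0.1 was taken to have been added, and RPKM was recovered by undoing this.

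Of 19076 entries, 27 with date-like or repeated symbols were left out, then those averaging under 1 RPKM and 178 short RNAs, leaving 11570 genes. Differences are on log2(RPKM + 1). Depth was estimated from the commonest low value of RPKM times transcript length (1 read). Only 46.3% to 47.4% of low values were whole reads within 2%, so no count model was fitted to test differences. The counting intervals use reads estimated in this way, rounded to whole numbers. They are exact for those estimates only and are approximate for the true reads. RPKM depends on the whole library: a transcript that gains share lowers all others.

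Lengths and GC content came from 1 GENCODE release 29 transcript per symbol (11305 genes, 97.7%), used for no coordinates; the same release (build GRCh38) gave overlaps of exons. Trends were removed by lowess (fraction 0.2, 2 rounds, statsmodels 0.14.6), keeping the overall median. Functions were tested on simulated data. The 10 members and the gene lists were chosen with earlier results of these data known. All members are named; of each list, genes at least 1.5-fold apart, up to 4 per comparison, or otherwise the 2 with the largest differences, except where another gene of a family is given to complete it. The 3 genes nearest to the highest and the lowest member are named. The alternatives changed the pseudocount (0.1 or 0.5), the filter (none, or an average of 5 RPKM), the scaling (centring, or a trimmed mean leaving out 30% of ratios and 5% of levels at each end), the trends and the fold (2-fold).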

Additional observations from a re-analysis of the deposited data

How the results depend on the processing

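No paired analysis was possible because each form of KAP1 has 1 library, and for the same reason no library could be left out. Of the 207 member differences recomputed under the 7 alternatives, 176 moved by less than their counting error and 31 by more, and 0 of those past 1.5-fold changed sign. The number of members at least 1.5-fold lower in S473D than in wt was 0, in place of 1, with the trends on transcript length and GC content removed, and also 0 at a limit of 2-fold, as it was between S473D and S473A at that limit. With a pseudocount of 0.1, DUSP10 joined PTPRR, making 2 members higher in S473D than in S473A. Of the 288 counts and medians of the related lists recomputed, 48 moved. The median difference of the members between S473D and wt was 0.17 with trimmed mean scaling, in place of 0.06. Between S473D and S473A it was 0.12 after centring and 0.12 with trimmed mean scaling, in place of 0.02. DUSP1 between S473D and wt and DUSP5 between S473D and S473A changed sign under some alternatives, both from differences near 0. Over all genes, 1164 were at least 1.5-fold apart between S473D and wt, 577 with the trends removed and 126 at 2-fold. Between S473D and S473A these counts were 1141, 577 and 131. Between S473A and wt they were 28, 23 and 2. Depth limits DUSP10 most, at 143 to 179 estimated reads per library, and PTPRR next in S473A and wt.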
